A study of Mus musculus with 10 samples.

Results

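TFIIH is the general transcription factor that carries the kinase CDK7, and the mRNA levels of the 10 mouse genes that encode it were followed in medulloblastoma cells given a CDK7 inhibitor or a SMO inhibitor. The genes are Cdk7, Ccnh, Mnat1, Gtf2h1, Gtf2h2, Gtf2h3, Gtf2h4, Gtf2h5, Ercc2 and Ercc3, taken by symbol from 3 deposited count tables, which together hold 13976 genes. SMB56 is a line of spontaneous medulloblastoma cells of Ptch+/- genotype, grown as neurospheres, and SMB56-shSufu is the same line with a short hairpin RNA against Sufu. SMB56 received DMSO, 0.1 µM THZ1, a covalent CDK7 inhibitor, or 1 µM GDC-0449 (vismodegib), a SMO inhibitor. SMB56-shSufu received DMSO or 0.1 µM THZ1. Every exposure lasted 8 hours and every group has 2 libraries, which makes 5 groups and 10 libraries. No label says that the libraries of a group are separate cultures. Their spread may therefore be technical, and a p-value is a measure of that spread alone. The design text contrasts cells that respond to SMO inhibition with cells that resist it.

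The tables do not hold the same genes. Cdk7, Gtf2h1, Gtf2h2, Gtf2h3, Gtf2h4 and Ercc3 stand in all 3 tables. Ccnh is missing from the GDC-0449 table, and Mnat1, Gtf2h5 and Ercc2 are missing from the table of THZ1 in SMB56. That leaves 7 genes for THZ1 in SMB56, 9 for GDC-0449 and 10 for THZ1 in SMB56-shSufu, and each of them passed the filter on low counts. In the table of THZ1 in SMB56 all but 8 of 10007 genes have an adjusted p-value under 0.05 in the authors' deposited column, so the table was selected on the outcome. The 7 genes it holds of the set, and any median over them, are therefore selected for change as well. The missing genes were not all low in reads. In the SMB56 DMSO libraries Gtf2h5 had 1153 and 1157 reads, Ercc2 501 and 471, Ccnh 473 and 530 and Mnat1 134 and 154. The largest p-value in the authors' deposited table for GDC-0449 is 0.939.

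TFIIH joins RNA polymerase II at promoters, where the ATPase XPB, encoded by Ercc3, opens the DNA at the start site. Its detachable kinase module, CDK7 with cyclin H (Ccnh) and MAT1 (Mnat1), phosphorylates the tail of the polymerase and, on its own, activates the kinases of the cell cycle. The core also holds the helicase XPD, encoded by Ercc2, and the products of Gtf2h1 to Gtf2h5, and it opens the DNA around lesions during nucleotide excision repair. The cells studied here are of the hedgehog-driven kind of medulloblastoma, which arises from cerebellar granule neuron progenitors.

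Summed over the genes a table holds, libraries had 10614268 to 13170421 reads in the table of THZ1 in SMB56. These sums were 13131292 to 14986389 for GDC-0449, and 30100041 to 33254885 for SMB56-shSufu. For genes in both SMB56 tables the DMSO counts were the same. The totals of those DMSO libraries, and shares taken of them, therefore differ between the tables by the genes held. Of 10 markers of granule neuron progenitors and hedgehog medulloblastoma, 9, 9 and 10 stood in the 3 tables, with summed levels of 2717 to 4266 CPM (reads scaled to a common library size). Endothelial and fibroblast markers (0 of 3 each) stood in none. Libraries of a group varied by a common coefficient of 3.02% in the fit of THZ1 in SMB56, 2.27% in that of GDC-0449 and 13.3% in SMB56-shSufu.

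In both lines THZ1 lowered Gtf2h2 and Gtf2h3, which encode paired subunits of the TFIIH core. Cdk7, the target of the compound, was 1.15-fold lower in SMB56 and 1.01-fold lower in SMB56-shSufu after TMM scaling, and higher in both with RLE scaling. Gtf2h2 fell 2.09-fold in SMB56 and 2.98-fold in SMB56-shSufu, and Gtf2h3 fell 2.08-fold and 1.70-fold. Ercc3 rose 1.58-fold and 1.33-fold after TMM scaling, although it was lower with THZ1 in both lines when libraries were scaled on mitochondrial counts. With GDC-0449, 0 of the 9 measured genes passed the edgeR test after TMM scaling, where 36.3% of all genes were called. An unadjusted p under 0.05 was reached by 0 of them. DESeq2 also called 0, where it called 16.6% of all genes. With mitochondrial scaling 3 were called lower, where 37.3% of all genes were. A gene was called at an edgeR adjusted p under 0.05 over all genes of its table.

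With THZ1 in SMB56, 2 of 7 genes were called higher and 5 lower, where 99.5% of all genes tested in that table were called (44.3% higher and 55.2% lower), so the calls there say little and the sizes are what can be read. The joint fit of all 10 libraries called 4 of the 6 genes it holds, where 81.2% of its genes were called. The median log2 fold change was -0.37 over the 7 genes and -0.31 over all 9863 genes tested. In SMB56-shSufu, 1 of 10 genes was called higher and 4 lower, where 61.9% of all genes were called (29.5% higher and 32.3% lower). There the median log2 fold change was -0.27 over the 10 genes and -0.04 over all 11886 genes tested. Without THZ1 replicate 1 the count in SMB56-shSufu was 3 (Ccnh, Gtf2h2 and Gtf2h3), and without THZ1 replicate 2 it was 2 (Gtf2h2 and Gtf2h3).

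**Figure D1:**
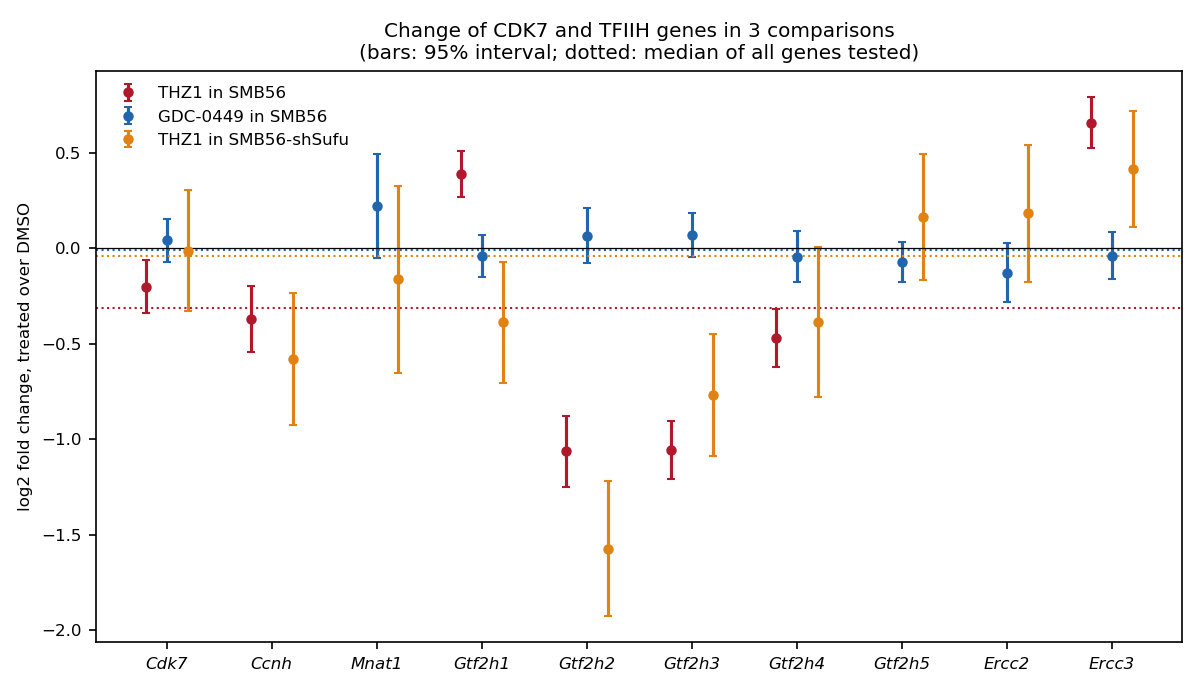
Log2 fold change, treated over DMSO, of the 10 genes (x axis) for THZ1 in SMB56 (red), GDC-0449 in SMB56 (blue) and THZ1 in SMB56-shSufu (orange), with bars for the 95% interval and dotted lines for the median of all genes tested in each table. Gtf2h2 and Gtf2h3 lie lowest with THZ1, at -1.06 and -1.06 in SMB56 and at -1.57 and -0.77 in SMB56-shSufu, while the 9 GDC-0449 values lie between -0.13 and 0.22.

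The kinase gene Cdk7 lies on chromosome 13. Its promoter is shown because, of the 8 genes with a promoter window in the RefSeq table used here, it alone has a clear one. A window counts as clear if the 250 bases before the start site overlap no annotated exon and no RefSeq gene. Overlap with the gene's own annotation counts too. The stretch is chr13:100730943-100731192 in GRCm38.p6, minus strand, read 5′ to 3′ up to the start site and credited to RefSeq, with motif matches in capitals.
Cdk7 promoter: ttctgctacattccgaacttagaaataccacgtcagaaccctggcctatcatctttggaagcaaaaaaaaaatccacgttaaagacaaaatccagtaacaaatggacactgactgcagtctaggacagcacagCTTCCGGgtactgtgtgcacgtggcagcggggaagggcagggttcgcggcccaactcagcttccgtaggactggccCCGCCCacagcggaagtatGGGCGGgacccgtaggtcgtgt
The capitals mark a GC box (GGGCGG) on each strand, 22 and 41 bases before the start, and an ETS motif (CCGGAAG, here on the reverse strand) 117 bases before it. Both strands were also searched for CCAAT and TATAAA, which gave no match in this window. Of 32851 mouse promoter windows of the same length, 32.7% hold GGGCGG, 6.91% CCGGAAG, 33.8% CCAAT and 12.4% TATAAA. A match to GGGCGG is thus common and one to CCGGAAG less so, and the matches describe the letters only.

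In SMB56, Cdk7 stood at 62.4 and 61.6 CPM with DMSO and at 56.2 and 51.4 CPM with THZ1. Both treated libraries lay below both controls, by less than the median gene of the table did. The log2 fold change was -0.20 ± 0.07 (SE; edgeR adjusted p 0.00676). That direction is not stable, since it turned to 0.10 with RLE scaling, to 0.10 with DESeq2 (adjusted p 0.371) and to 0.051 in the joint fit of all 10 libraries (edgeR adjusted p 0.621). Without THZ1 replicate 2 it was -0.13 (edgeR adjusted p 0.105).

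In SMB56-shSufu, Cdk7 stood at 53.1 and 47.9 CPM with DMSO and at 47.6 and 52.6 CPM with THZ1. The groups overlapped, and the log2 fold change was -0.012 ± 0.15 (95% interval -0.33 to 0.31; edgeR adjusted p 0.95). It became -0.42 with library size scaling (edgeR adjusted p 0.0215), -0.55 on FPKM with limma (adjusted p 0.0126) and -1.35 with mitochondrial scaling (edgeR adjusted p 9.48e-05).

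Ccnh encodes cyclin H, the regulatory partner that CDK7 needs for activity. It stood at 32.8 and 35.4 CPM with DMSO and at 26.3 and 26.5 CPM with THZ1 in SMB56, with no overlap. The log2 fold change was -0.37 ± 0.08 (edgeR adjusted p 0.000281), close to the median of all genes, and it was -0.064 with RLE scaling (edgeR adjusted p 0.476). In SMB56-shSufu its levels were 39.6 and 38.0 CPM with DMSO and 28.6 and 23.3 CPM with THZ1. Both treated libraries were again lower, at a log2 fold change of -0.58 ± 0.16 (edgeR adjusted p 0.00692). The call was lost without THZ1 replicate 2 (-0.44, edgeR adjusted p 0.133).

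Mnat1 encodes MAT1, which assembles the kinase module and tethers it to the core. It had the fewest reads of the set, 134 to 178 in the SMB56 libraries of the GDC-0449 table. In SMB56-shSufu it stood at 11.4 and 8.11 CPM with DMSO and at 8.74 and 8.66 CPM with THZ1, so that the groups overlapped. Its log2 fold change there was -0.16 ± 0.23 (95% interval -0.65 to 0.33; edgeR adjusted p 0.548). It was called lower with library size scaling (-0.57, edgeR adjusted p 0.0399), on FPKM with limma (-0.70, adjusted p 0.0113) and with mitochondrial scaling (-1.52, edgeR adjusted p 4.23e-06).

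**Figure D2:**
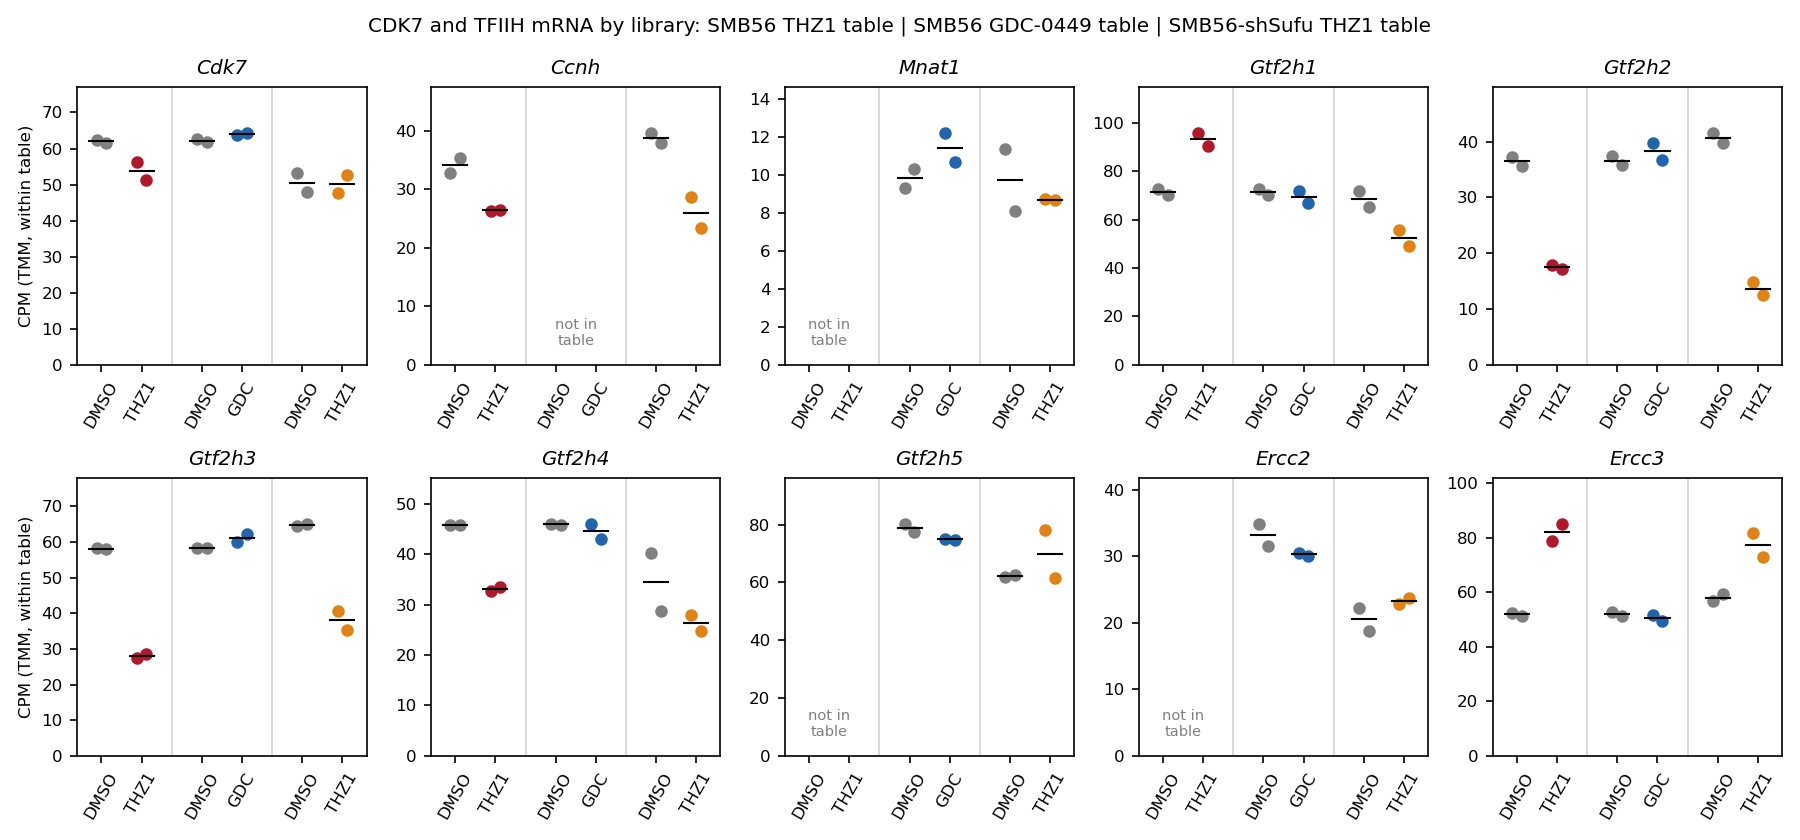
TMM-normalized CPM of each gene by library, with 1 panel per gene, 1 point per library and a line for the group mean; each panel shows the table of THZ1 in SMB56, the GDC-0449 table and the SMB56-shSufu table from left to right. Gtf2h2 goes from 37.3 and 35.7 to 17.8 and 17.1 CPM with THZ1 in SMB56 and from 41.5 and 39.7 to 14.8 and 12.5 CPM in SMB56-shSufu, while the GDC-0449 points stay beside their controls.

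Of the core genes, Gtf2h2 is given first. Its product binds XPD and stimulates its helicase. In SMB56 it stood at 37.3 and 35.7 CPM with DMSO and at 17.8 and 17.1 CPM with THZ1, from 538 and 534 reads to 186 and 161. The log2 fold change was -1.06 ± 0.09 (edgeR adjusted p 4.85e-10), and 23% of the genes tested there had a lower one. In SMB56-shSufu it stood at 41.5 and 39.7 CPM with DMSO and at 14.8 and 12.5 CPM with THZ1. The log2 fold change was -1.57 ± 0.16 (edgeR adjusted p 5.24e-06), where 5.61% of the genes tested had a lower one.

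Gtf2h3 encodes the core subunit that pairs with the product of Gtf2h2. In SMB56 it stood at 58.3 and 58.1 CPM with DMSO and at 27.5 and 28.5 CPM with THZ1, a log2 fold change of -1.06 ± 0.07 (edgeR adjusted p 1.95e-11). In SMB56-shSufu its levels were 64.5 and 65.0 CPM with DMSO and 40.8 and 35.2 CPM with THZ1, a log2 fold change of -0.77 ± 0.15 (edgeR adjusted p 0.000598). Of all genes tested, 23.2% in SMB56 and 22.1% in SMB56-shSufu had a lower log2 fold change than Gtf2h3. For both Gtf2h2 and Gtf2h3 the control and treated libraries lay far apart in each line. The log2 fold changes of these 2 genes were -0.66 or lower under all 9 other settings and without each of the 4 libraries in turn, in each line. The falls also stayed called under those 9 settings. Of all genes, 81.2% to 99.6% were called under them in SMB56 and 60.2% to 82.0% in SMB56-shSufu. The calls thus say little, above all in SMB56, and the sizes are what can be read.

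Gtf2h1 encodes the scaffold subunit through which TFIIH meets activators and the repair factor XPC. In SMB56 it stood at 72.5 and 70.1 CPM with DMSO and at 95.8 and 90.7 CPM with THZ1. Both treated libraries were higher after TMM scaling, with a log2 fold change of 0.39 ± 0.06 (edgeR adjusted p 2.27e-06), but it was 0.026 with library size scaling (edgeR adjusted p 0.665), -0.19 on the authors' FPKM with limma and -0.88 with mitochondrial scaling. In SMB56-shSufu it stood at 72.0 and 65.4 CPM with DMSO and at 55.9 and 49.0 CPM with THZ1. There it fell, with a log2 fold change of -0.39 ± 0.15 (edgeR adjusted p 0.0335). This call was lost without DMSO replicate 1 (edgeR adjusted p 0.0628), without THZ1 replicate 1 (edgeR adjusted p 0.0817), without THZ1 replicate 2 (edgeR adjusted p 0.281) and with DESeq2 (adjusted p 0.0517).

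Gtf2h4 encodes the subunit that anchors XPB in the core. In SMB56 it stood at 45.9 and 45.8 CPM with DMSO and at 32.6 and 33.5 CPM with THZ1. The log2 fold change was -0.47 ± 0.07 (edgeR adjusted p 3.99e-06), and it was -0.16 with DESeq2 (adjusted p 0.22) and -0.22 in the joint fit (edgeR adjusted p 0.186). In SMB56-shSufu the DMSO libraries were apart from each other, at 40.2 and 28.7 CPM, and the THZ1 libraries stood at 28.0 and 24.7 CPM. The log2 fold change of -0.38 ± 0.18 did not pass the test (edgeR adjusted p 0.0817). It was -0.61 without DMSO replicate 2 and -0.12 without DMSO replicate 1. Gtf2h4 was called lower there with library size (-0.79, edgeR adjusted p 0.00183), upper-quartile (-0.55, edgeR adjusted p 0.0162) and mitochondrial scaling (-1.75, edgeR adjusted p 2.11e-07). The same held on FPKM with limma (-1.21, adjusted p 0.000435) and with a replicate block. It was not called with RLE scaling (-0.35, edgeR adjusted p 0.102), with DESeq2 (-0.35, adjusted p 0.133) or in the joint fit (-0.28, edgeR adjusted p 0.0761).

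Gtf2h5 encodes the smallest core subunit, which stabilizes TFIIH and stimulates XPB in repair. In SMB56-shSufu it stood at 61.9 and 62.7 CPM with DMSO and at 78.0 and 61.5 CPM with THZ1, so the treated libraries fell on both sides of the controls. Its log2 fold change was 0.16 ± 0.15 (95% interval -0.17 to 0.49; edgeR adjusted p 0.367). With mitochondrial scaling it was called lower (-1.16, edgeR adjusted p 0.000894).

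The helicase genes did not fall under TMM scaling. Ercc3 stood at 52.5 and 51.3 CPM with DMSO and at 78.9 and 84.9 CPM with THZ1 in SMB56, a log2 fold change of 0.66 ± 0.06 (edgeR adjusted p 4.42e-09). That value was 0.30 with library size scaling (edgeR adjusted p 0.00018), 0.13 on FPKM with limma, where it did not pass (adjusted p 0.136), and -0.61 with mitochondrial scaling. In SMB56-shSufu it stood at 56.8 and 59.2 CPM with DMSO and at 81.8 and 72.8 CPM with THZ1. Both treated libraries were higher, with a log2 fold change of 0.41 ± 0.14 (edgeR adjusted p 0.0209) that turned to -0.18 on FPKM with limma and to -0.91 with mitochondrial scaling. The call was lost without THZ1 replicate 1 (edgeR adjusted p 0.192), without THZ1 replicate 2 (edgeR adjusted p 0.0567), with upper-quartile scaling (edgeR adjusted p 0.133) and with library size scaling (edgeR adjusted p 0.976). Ercc2 stood at 22.2 and 18.8 CPM with DMSO and at 22.8 and 23.8 CPM with THZ1 in SMB56-shSufu, with a log2 fold change of 0.18 ± 0.17 (95% interval -0.18 to 0.54; edgeR adjusted p 0.354). Ercc2 was called lower there on FPKM with limma (-0.60, adjusted p 0.0101) and with mitochondrial scaling (-1.16, edgeR adjusted p 0.000325).

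The mitochondrial share of the counts moved with THZ1, from 3.75% and 3.74% to 7.55% and 6.55% in SMB56 and from 5.92% and 8.29% to 13.1% and 13.0% in SMB56-shSufu. Levels are relative to the other genes of a library, and fewer cells of a type and less RNA per cell cannot be told apart. The median log2 fold change of all genes in SMB56 was -0.31 with TMM, -0.006 with RLE, -0.28 with upper-quartile, -0.67 with library size, -0.68 with FPKM and -1.58 with mitochondrial scaling. In SMB56-shSufu these medians were -0.04, -0.01, -0.21, -0.45, -0.58 and -1.37. Relative to the TMM median, Gtf2h2 lay at -0.75 in SMB56 and at -1.53 in SMB56-shSufu, and Gtf2h3 lay at -0.74 and -0.73. Ercc3 lay at 0.97 and 0.46 on the same measure, and Cdk7 at 0.11 and 0.031.

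**Figure D3:**
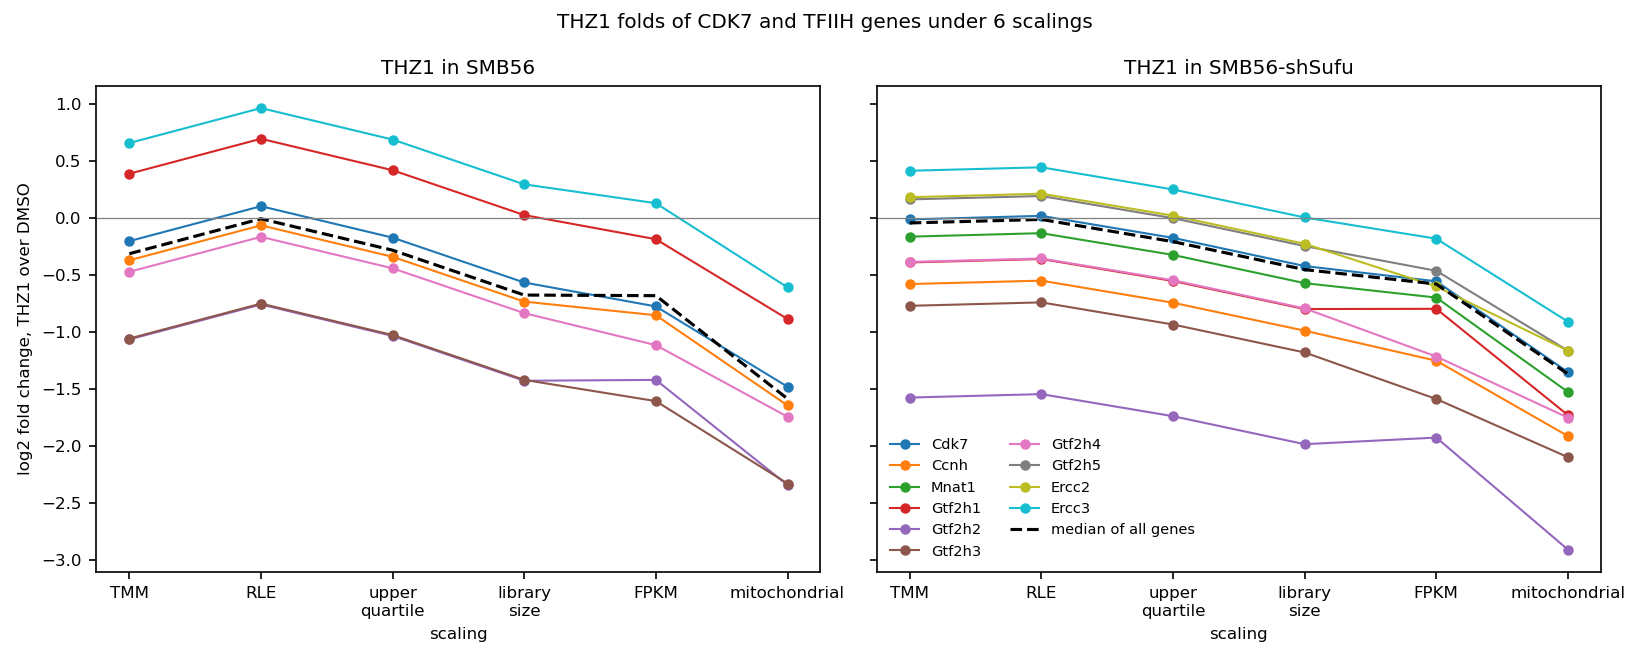
Log2 fold change with THZ1 of each measured gene (y axis) under 6 scalings (x axis), in SMB56 on the left and SMB56-shSufu on the right, with the median of all genes dashed. The genes shift together from scaling to scaling: Ercc3 in SMB56 goes from 0.66 with TMM to -0.61 with mitochondrial scaling, and Gtf2h2 and Gtf2h3 lie below the dashed line. Scaling of the counts moves every gene and the median nearly alike, so a place against that line can change only on FPKM.

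Ratios of read counts within a library do not depend on the scaling. Ercc3 was taken as the reference after its values had been seen, and since a ratio carries the lengths of both genes only its change between libraries can be read. Per read of Ercc3, Gtf2h3 had 1.11 and 1.13 reads in the SMB56 DMSO libraries, 1.16 and 1.26 with GDC-0449, and 0.349 and 0.335 with THZ1. In SMB56-shSufu the ratio was 1.14 and 1.10 with DMSO and 0.499 and 0.484 with THZ1. For Gtf2h2 the ratio was 0.712 and 0.696 with DMSO, 0.770 and 0.743 with GDC-0449 and 0.226 and 0.201 with THZ1 in SMB56. It was 0.731 and 0.671 with DMSO and 0.181 and 0.172 with THZ1 in SMB56-shSufu. In both lines the THZ1 libraries lay below every DMSO and GDC-0449 library for both ratios. Since Ercc3 was itself higher with THZ1 after TMM scaling, these drops cannot be laid to Gtf2h2 and Gtf2h3 alone.

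The ratio of Cdk7 to Ercc3 was 1.189 and 1.202 with DMSO and 0.713 and 0.605 with THZ1 in SMB56, and 0.935 and 0.810 with DMSO and 0.582 and 0.722 with THZ1 in SMB56-shSufu. The ratio of Gtf2h1 to Ercc3 was 1.38 and 1.37 with DMSO and 1.22 and 1.07 with THZ1 in SMB56. In SMB56-shSufu this ratio was 1.27 and 1.10 with DMSO and 0.684 and 0.672 with THZ1, the lowest of the 5 groups. The groups of a line did not overlap for Cdk7, but the reference gene Ercc3 was itself higher with THZ1 after TMM scaling. Set against the mean log2 count of the 6 shared members, which is also free of the scaling, Cdk7 lay the other way, at 0.22 and 0.23 with DMSO and 0.37 and 0.25 with THZ1 in SMB56. In SMB56-shSufu it lay at -0.0098 and -0.030 with DMSO and 0.28 and 0.56 with THZ1. That mean includes Cdk7 itself and Gtf2h2 and Gtf2h3, which fell with THZ1, so neither reference is free of change.

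**Figure D4:**
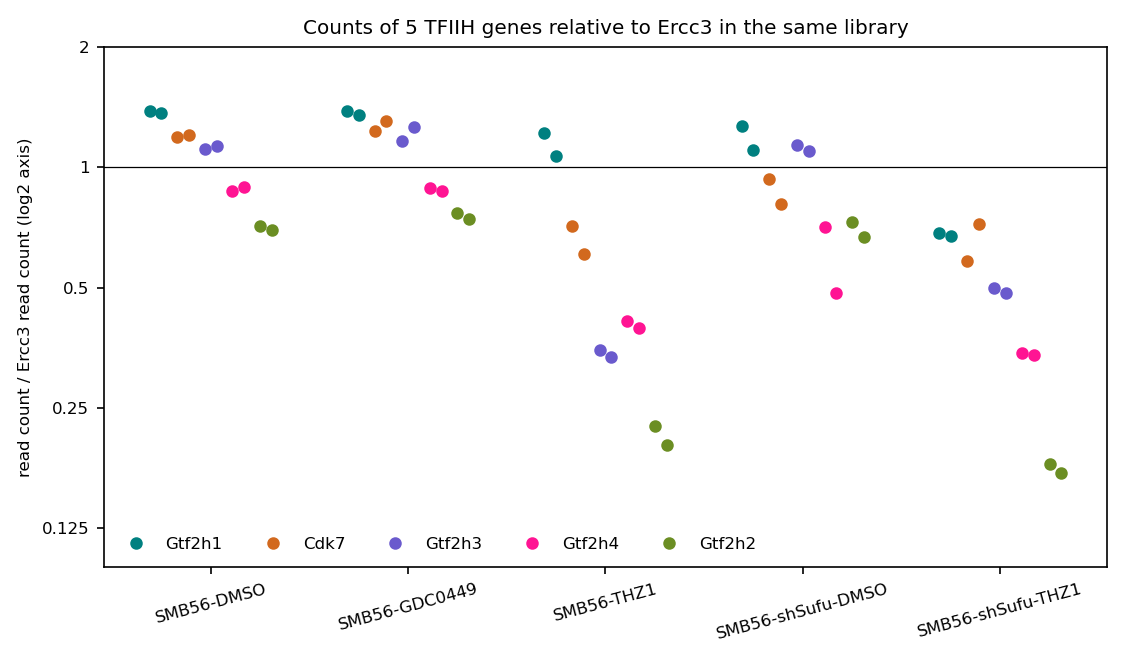
Read count of 5 TFIIH genes divided by that of Ercc3 in the same library (log2 axis), for the 10 libraries in their 5 groups. The points of Gtf2h3 and Gtf2h2 drop with THZ1 in both lines, to 0.335 to 0.499 for Gtf2h3 and to 0.172 to 0.226 for Gtf2h2, and lie at 1.16 to 1.26 and 0.743 to 0.770 with GDC-0449. The reference Ercc3 was itself higher with THZ1 after TMM scaling.

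The SMO inhibitor was compared with DMSO in SMB56, where the hedgehog target gene Gli1 stood at 168 and 164 CPM with DMSO and at 11.3 and 13.4 CPM with GDC-0449. Of the 9 TFIIH genes measured, 0 were called by edgeR, where 36.3% of all 10008 genes were called (17.5% higher and 18.8% lower), and 0 had an unadjusted p under 0.05. The joint fit called 0 of the 6 it holds, where 2.00% of all its genes were called. DESeq2 also called 0 of the 9, where it called 16.6% of all genes. With limma on FPKM 0 were called, where 6.33% of all genes were, and 1 of the 9 had an unadjusted p under 0.05. At such low shares a count of 0 says little of the set. Mitochondrial scaling called 3 lower (Gtf2h1, Gtf2h5 and Ercc2), with log2 fold changes of -0.16, -0.19 and -0.25, where 37.3% of all genes were called lower under that scaling. Mitochondrial genes took 3.29% of the counts that the GDC-0449 table holds for each DMSO library, against 3.70% and 3.52% with GDC-0449.

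Cdk7 stood at 62.5 and 61.8 CPM with DMSO and at 63.6 and 64.3 CPM with GDC-0449. The treated libraries were slightly higher, with a log2 fold change of 0.041 and a 95% interval of -0.072 to 0.15 (edgeR adjusted p 0.562). Mnat1 had the highest value of the set, at 9.32 and 10.3 CPM with DMSO and 12.2 and 10.7 CPM with GDC-0449 and a log2 fold change of 0.22 ± 0.13 (edgeR adjusted p 0.195). Ercc2, the XPD gene, had the lowest, at 34.8 and 31.6 CPM with DMSO and 30.6 and 30.1 CPM with GDC-0449 and a log2 fold change of -0.13 ± 0.08 (edgeR adjusted p 0.186). The core genes Gtf2h2 and Gtf2h3, which fell with THZ1, had log2 fold changes of 0.066 (95% interval -0.078 to 0.21) and 0.069 (95% interval -0.047 to 0.19). Gtf2h5 stood at 80.2 and 77.5 CPM with DMSO and at 75.2 and 74.7 CPM with GDC-0449, the most CPM of the set in that table, with a log2 fold change of -0.073 ± 0.05 (edgeR adjusted p 0.261).

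Whether THZ1 acted differently in the 2 lines was tested as a difference of effects in a joint fit of the 10 libraries over the 7244 genes that all 3 tables share. Those genes all stand in the table of THZ1 in SMB56, which was selected on the outcome. Shares and ranks here therefore describe genes selected on the SMB56 effect that is being compared. The lines also differ in table and in depth, and these cannot be told apart from the line. The joint fit pools the spread of both lines, at a common coefficient of 8.62%, against 3.02% for THZ1 in SMB56 and 13.3% in SMB56-shSufu alone. The standard error of the Gtf2h1 difference (0.13) was thus below that of its SMB56-shSufu effect in its own fit (0.15). The p-values between lines, also those under DMSO, may therefore be too small. Of the 6 genes that could be tested, 3 had a lower effect in SMB56-shSufu than in SMB56 and 0 a higher one, where 25.2% of all genes were called (11.5% lower). Without SMB56 DMSO replicate 2 or without SMB56 THZ1 replicate 1 the count was 1. Gtf2h1, the scaffold gene, had the lowest difference of the set, with a log2 value of -0.93 ± 0.13 (edgeR adjusted p 0.00141), lower than all but 2.03% of genes. On the scale of this fit it went from 72.3 and 69.7 to 114 and 108 CPM in SMB56 and from 91.9 and 84.8 to 77.2 and 67.8 CPM in SMB56-shSufu. The lines moved in opposite directions on that scale.

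For Gtf2h2 the difference was -0.66 ± 0.16 (edgeR adjusted p 0.0121), a deeper fall in SMB56-shSufu, with joint-scale levels going from 37.2 and 35.5 to 21.2 and 20.3 CPM in SMB56 and from 53.1 and 51.5 to 20.4 and 17.3 CPM in SMB56-shSufu. The treated levels of the lines were thus closer than the control levels. The call for Gtf2h2 was lost on FPKM with limma (adjusted p 0.102), with mitochondrial scaling (edgeR adjusted p 0.323), without SMB56 DMSO replicate 2 (edgeR adjusted p 0.0606) and without SMB56 THZ1 replicate 1 (edgeR adjusted p 0.0586). For Ercc3 the difference was -0.40 ± 0.12 (edgeR adjusted p 0.0365), and it was not called in the fit of the contrast's own 8 libraries (edgeR adjusted p 0.0792), with library size scaling (edgeR adjusted p 0.0783), on FPKM with limma (adjusted p 0.189) or in 7 of the 10 fits that left out 1 library. For Gtf2h3 the difference was 0.13 (95% interval -0.15 to 0.42) and for Cdk7 0.040 (95% interval -0.24 to 0.32). Ccnh could be compared only in the fit of the 8 libraries, where its difference was -0.34 ± 0.17 (edgeR adjusted p 0.187). With mitochondrial scaling 0 of the 6 were called, 1 with an unadjusted p under 0.05, and the difference of Gtf2h1 was -0.84 (edgeR adjusted p 0.122).

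Between the lines under DMSO, the hairpin's target Sufu stood at 72.3 and 67.6 CPM in SMB56 and at 23.7 and 24.7 CPM in SMB56-shSufu. With THZ1 Sufu was higher in both lines, at 151.5 and 159.4 CPM in SMB56 and at 115.3 and 107.8 CPM in SMB56-shSufu. The treated SMB56-shSufu libraries thus lay above the SMB56 DMSO libraries for Sufu. Under DMSO, 4 of the 6 TFIIH genes were called higher in SMB56-shSufu and 0 lower, where 55.2% of all genes were called (27.5% higher). Mitochondrial scaling turned all 4 to lower values, as it shifted the whole set of genes. Under it 94.0% of all genes were called lower, at a median log2 value of -1.23. Ercc3 was higher by a log2 value of 0.53 ± 0.09 (edgeR adjusted p 0.000429), Gtf2h3 by 0.53 ± 0.09 (edgeR adjusted p 0.000522) and Gtf2h2 by 0.52 ± 0.10 (edgeR adjusted p 0.00135). Gtf2h1 was higher by 0.32 ± 0.09 (edgeR adjusted p 0.0117), a call lost with library size scaling (edgeR adjusted p 0.0583) and without SMB56 DMSO replicate 2 (edgeR adjusted p 0.0876). Cdk7 did not pass, at 0.074 (95% interval -0.12 to 0.27), and neither did Gtf2h4, at -0.045 (95% interval -0.34 to 0.26). Cdk7 was called higher on FPKM with limma (0.32, adjusted p 0.0371), Gtf2h4 was called lower (-0.30, edgeR adjusted p 0.0203) when DMSO replicate 1 of SMB56-shSufu was left out, and both were called lower with mitochondrial scaling. On the joint scale Cdk7 stood at 62.2 and 61.3 CPM in SMB56 and at 67.9 and 62.2 CPM in SMB56-shSufu.

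All 10 genes could be set side by side in a fit of the 4 DMSO libraries, over 10675 genes, of which 40.7% were called (20.7% higher). Ccnh joined the genes called higher, from 30.6 and 32.9 CPM in SMB56 to 47.4 and 45.8 CPM in SMB56-shSufu (log2 difference 0.55 ± 0.10, edgeR adjusted p 0.00957). Its partners in the kinase module were not called, with 0.073 for Cdk7 (edgeR adjusted p 0.566) and 0.36 ± 0.21 for Mnat1 (edgeR adjusted p 0.224). The helicase genes stood apart in sign, with 0.53 for Ercc3 and -0.32 ± 0.13 for Ercc2 (edgeR adjusted p 0.101). Gtf2h5 was at 74.5 and 71.8 CPM in SMB56 and 74.1 and 75.6 CPM in SMB56-shSufu, a difference of 0.033 (edgeR adjusted p 0.778).

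Levels of different genes were compared per length, on the authors' FPKM. With DMSO in SMB56, Gtf2h5 was highest at 42.0 ± 1.36 FPKM (SD, n = 2), followed by Gtf2h3 at 21.2 ± 1.22, Gtf2h4 at 20.3 ± 1.33 and Gtf2h1 at 16.4 ± 0.54 FPKM. The ranges of Gtf2h3 and Gtf2h4 overlapped. Ercc2 at 14.3 ± 2.01, Gtf2h2 at 13.1 ± 0.073 and Ccnh at 12.9 ± 0.40 FPKM also overlapped with their neighbours. Ercc3 was at 10.8 ± 0.13, and the genes of the kinase module other than Ccnh stood lowest, Cdk7 at 5.43 ± 0.16 and Mnat1 at 3.53 ± 0.097 FPKM. In SMB56-shSufu with DMSO, Gtf2h5 was again highest (52.7 ± 1.85 FPKM) and Cdk7 (7.02 ± 0.78) and Mnat1 (4.36 ± 1.31) lowest.

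That order depends on how length is taken, for most of the 10 genes. In the SMB56 DMSO libraries Cdk7 had 168 reads for each FPKM, against 27.5 to 70.5 for the other 9 genes. By reads per kilobase of all annotated exons (GENCODE M21, GRCm38), Cdk7 ranked 4 of 10, with 243 and 249, where it ranked 9 by FPKM. By that measure Gtf2h1 was highest in SMB56 with DMSO (350 and 351), followed by Gtf2h5 (299 and 300) and Ercc3 (267 and 271), while Gtf2h3 ranked 7 (133 and 138). Mnat1 was last by both measures, with 24.9 and 28.6 reads per kilobase.

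With THZ1 the order by FPKM changed. By reads per kilobase the 7 genes measured in SMB56 kept their order, with Gtf2h1 and Ercc3 highest of them with DMSO as well. In SMB56-shSufu the order by reads per kilobase changed, with Ercc3 going from rank 2 to 1 and Gtf2h1 from rank 1 to 3. In SMB56 Gtf2h1 (14.3 ± 1.12 FPKM) and Ercc3 (11.9 ± 0.64) stood highest of the 7 measured genes, and Gtf2h3 went from 20.3 and 22.0 FPKM to 5.71 and 6.90. In SMB56-shSufu Gtf2h5 stayed highest at 44.0 and 32.7 FPKM, Gtf2h3 went from 35.3 and 33.7 to 10.6 and 11.1, and Gtf2h2 from 24.1 and 25.8 to 6.90 and 4.92 FPKM. With GDC-0449 the highest was Gtf2h5 (39.9 ± 0.86 FPKM) and the lowest Mnat1 (3.85 ± 0.44 FPKM).

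Of the set, 3 genes, Cdk7, Ccnh and Gtf2h2, lie on chromosome 13, and Gtf2h1 and Ercc2 on chromosome 7, Gtf2h4 and Gtf2h5 on chromosome 17, Gtf2h3 on chromosome 5, Mnat1 on chromosome 12 and Ercc3 on chromosome 18. Some start head to head with a neighbour that was also measured. Gtf2h3 starts 8 bases from Eif2b1, which encodes a subunit of a translation initiation factor, and Eif2b1 fell with THZ1 by log2 fold changes of -0.47 ± 0.08 in SMB56 (edgeR adjusted p 1.64e-05) and -1.13 ± 0.16 in SMB56-shSufu (edgeR adjusted p 4.74e-05). Gtf2h1 starts 38 bases from Hps5, which encodes a protein of lysosome-related organelles, and Hps5 fell by -0.45 ± 0.07 in SMB56 (edgeR adjusted p 8.16e-06), where Gtf2h1 was higher, and by -0.61 ± 0.16 in SMB56-shSufu (edgeR adjusted p 0.00471). Gtf2h5 starts 44 bases from Serac1, which fell by -1.67 ± 0.09 and -0.91 ± 0.22 (edgeR adjusted p 4.92e-13 and 0.0033). Members and their head-to-head neighbours thus did not share a direction in each case. Ercc2 shares 744 exon bases with Klc3 on the opposite strand and 1025 with an antisense gene, and Ccnh shares 12 with Rasa1. The strand setting of the counting is not stated, so reads of Ercc2 and of those genes cannot be told apart.

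Genes that work with TFIIH were counted by list, against 99.5% of all genes called with THZ1 in SMB56, 61.9% with THZ1 in SMB56-shSufu and 36.3% with GDC-0449. Since the table of THZ1 in SMB56 was selected on the outcome, a list's count of calls there says nothing of the list. Of 12 transcription and cell cycle kinases and their cyclins, 6 were called higher and 5 lower with THZ1 in SMB56-shSufu. The cyclins T of the elongation kinase CDK9 were the highest, Ccnt2 at 1.19 ± 0.16 and Ccnt1 at 0.88 ± 0.16, and the cell cycle kinases Cdk4 at -0.65 ± 0.16 and Cdk1 at -0.58 ± 0.16 the lowest. In SMB56, 4 were called higher and 6 lower of 10 tested, led by Ccnt1 (1.06 ± 0.04) and Cdk13 (0.78 ± 0.04) above and by Cdk4 (-0.96 ± 0.05) and Cdk1 (-0.63 ± 0.05) below. With GDC-0449, 2 of 12 were higher and 3 lower, among them the G1 kinase Cdk6 at -1.41 ± 0.06, Cdk2 at -0.23 ± 0.05, Ccnt2 at 0.13 ± 0.04 and Ccnc at 0.12 ± 0.04. The median log2 fold change of the list was -0.21 with THZ1 in SMB56, 0.37 with THZ1 in SMB56-shSufu and -0.047 with GDC-0449.

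Of 8 initiation factors that meet TFIIH at the promoter, 1 was called higher and 3 lower with THZ1 in SMB56-shSufu. These included Gtf2a1, a TFIIA gene, at 0.46 ± 0.14, the TFIIF gene Gtf2f1 at -0.95 ± 0.16 and Tbp, the TATA-binding protein, at -0.93 ± 0.15. In SMB56 the 3 tested had the same signs, with 1.15 ± 0.06, -0.86 ± 0.05 and -0.60 ± 0.05. With GDC-0449, 0 were higher and 2 lower, Gtf2f2 at -0.22 ± 0.08 and Gtf2e2 at -0.19 ± 0.06. The medians were -0.34, -0.60 and 0.021 in that order.

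Of 18 partners in nucleotide excision repair, 3 were called higher and 10 lower with THZ1 in SMB56-shSufu, and 4 higher and 9 lower of 13 tested in SMB56, where nearly every gene was called. Ddb1, a subunit of the damage-binding ubiquitin ligase, was the highest in both lines (1.16 ± 0.16 and 0.95 ± 0.05). In SMB56-shSufu Uvssa came next (0.61 ± 0.18), and the damage sensor Xpc was among the lower genes (-1.15 ± 0.17). In SMB56 Cetn2 came next (0.83 ± 0.08), and Pcna, the sliding clamp (-1.23 ± 0.05), and Xpc (-1.14 ± 0.09) were lowest. With GDC-0449, 2 of 16 were higher, Uvssa (0.29 ± 0.07) and Ercc5 (0.23 ± 0.07), and 6 lower, led by Rpa2 (-0.47 ± 0.05) and Lig1 (-0.42 ± 0.04). The list medians were -0.48 in SMB56-shSufu, -0.46 in SMB56 and -0.036 with GDC-0449, so with THZ1 they lay below the medians of all genes given above.

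Over the 10 libraries, on the joint scale, the gene whose log2 level was most like that of Cdk7 was Ep300, with a Pearson correlation of 0.810, followed by R3hdm2 (0.784), Elovl6 (0.769), Rbm24 (0.765) and Spire1 (0.763), among 6859 genes with a median of -0.030. These are descriptions, since the libraries share groups and controls and Cdk7 itself varied only from 61.0 to 72.8 CPM on that scale. Ep300 went from 157 CPM in each SMB56 DMSO library to 164 and 166 with THZ1, and from 179 and 177 to 179 and 217 in SMB56-shSufu. Among the 6 members in all 3 tables, Gtf2h2 and Gtf2h3 had the highest correlation (0.821) and Gtf2h2 and Ercc3 the lowest (-0.688). Cdk7 correlated with the other 5 by -0.375 to 0.446.

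Some markers of other cell types stood in the THZ1 tables. The table of THZ1 in SMB56 was selected on the outcome, so a marker that stands in it was nearly bound to differ. The microglial list had 1 of 5 genes in the THZ1 tables, Cd68, which also marks lysosomes, at 5.85 and 6.20 CPM with DMSO and 70.9 and 71.7 CPM with THZ1 in SMB56 (lowest and highest library). In SMB56-shSufu Cd68 stood at 10.2 to 14.5 CPM with DMSO and 87.2 to 89.6 CPM with THZ1, and the defining genes Aif1, Csf1r, Cx3cr1 and Ptprc stand in neither table. The astrocyte list had 1 of 4 genes, Gfap, at 1.34 to 1.37 CPM and 9.22 to 9.52 CPM with THZ1, in the SMB56 table only. The oligodendrocyte list had 3 of 4 genes in SMB56, with summed levels of 31.6 to 35.2 CPM with DMSO and 15.6 to 16.7 CPM with THZ1. In SMB56-shSufu it had 2 of 4, with 14.5 to 18.8 CPM and 8.54 to 10.1 CPM. The part of these genes in the TFIIH results was not tested.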

How the data were processed

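RNA of 10 libraries was made with an Illumina TruSeq RNA kit, per the labels' protocols, and 3 tables were used as deposited. Each gives read counts per gene for 4 libraries, which the authors deposited without normalization, and FPKM values that the authors computed for the same libraries. The authors' log2 fold change and p-value columns stand beside them in the deposited tables. Compared with folds made from the counts they correlated by -0.98 (THZ1 in SMB56), -0.975 (GDC-0449) and 0.999 (SMB56-shSufu), so their direction differs between tables, and no result uses them. The build hg19 and the tools DESeq2 1.20.0, Cufflinks 2.2.1 and STAR 2.5.3a are named in the submitters' processing notes, with no role given. Genes carry mouse Ensembl IDs, so no coordinate was taken from the files, and for the counter and its strand setting the sources used here give nothing.

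Treatments were tested with edgeR 4.0.16 in R 4.3.3 (quasi-likelihood F test, TMM, filterByExpr, Benjamini-Hochberg over all genes of a table), each on its own table and groups, which leaves 2 residual degrees of freedom. The comparisons between lines used 1 fit of the 10 libraries over 7244 shared genes (5 residual degrees of freedom). A standard error is the absolute log2 fold change over the root of F. CPM uses TMM library sizes within a table, except where a joint scale is named. Alternatives were library size, RLE, upper-quartile and mitochondrial scaling, no filter, DESeq2 1.42.0, limma 3.58.1 on log2(FPKM + 1), a replicate block, other sets of libraries and each library left out. The fits were tested on simulated counts. Replicate pairs differed by more than sampling noise (chi-square of 1.74 to 62.2 per gene), so none were merged.

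All 10 members are named in every table that holds them. Of each pathway list, the 2 genes of largest fold each way among those called are named (1 that the rule names is not reported here), and of the genes like Cdk7 the 5 of highest correlation with a mean CPM of at least 5. Members, lists and tests were chosen with earlier results of these data known. Gene positions are from GENCODE M21 (GRCm38), and the promoter from the RefSeq table of GRCm38.p6, which has a window for 8 of the 10 genes.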

Additional observations from a re-analysis of the deposited data

Results flagged for a closer look

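For 3 TFIIH genes the effect of THZ1 differed between the lines in a test of the difference itself (SMB56-shSufu minus SMB56, joint edgeR fit, 2 libraries per group), where 25.2% of all genes were called. For Gtf2h1 the difference of log2 fold changes was -0.93 (edgeR adjusted p 0.00141), and the gene was higher with THZ1 in both SMB56 libraries and lower in both SMB56-shSufu libraries after TMM scaling. For Gtf2h2 it was -0.66 (edgeR adjusted p 0.0121), on top of a fall in both lines, and the call was lost on FPKM with limma (adjusted p 0.102), with mitochondrial scaling (edgeR adjusted p 0.323) and in 2 of the 10 fits that left out 1 library. For Ercc3 it was -0.40 (edgeR adjusted p 0.0365), a smaller rise in SMB56-shSufu after TMM scaling. That call was lost in 7 of those 10 fits, with library size scaling (edgeR adjusted p 0.0783), with mitochondrial scaling (edgeR adjusted p 0.613), on FPKM with limma (adjusted p 0.189) and in the fit of the contrast's own groups (edgeR adjusted p 0.0792). The call for Gtf2h1 was lost with mitochondrial scaling (edgeR adjusted p 0.122). The SMB56-shSufu libraries were deeper, came in a separate table and differed more from each other, and line cannot be told apart from these. The joint fit pools the spread of both lines, so its p-values may be too small.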

How the results depend on the processing

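The falls of Gtf2h2 and Gtf2h3 with THZ1 kept their direction in both lines under every alternative run. Under the settings that kept all libraries they also kept their call. There 81.2% to 99.6% of all genes were called in SMB56 and 60.2% to 82.0% in SMB56-shSufu. Of the single-gene values recomputed, 461 kept direction and side of the threshold, 34 lost the call, 18 gained it and 45 changed sign, and the cause of these changes was not tested. The share of all genes called under the same setting is in brackets. THZ1 in SMB56 called 4 members with DESeq2 (84.0%) and 4 in the joint fit (81.2%), 6 to 7 without single libraries (98.7% to 99.1%). GDC-0449 called 3 with mitochondrial scaling (42.2%). THZ1 in SMB56-shSufu called 10 with mitochondrial scaling (78.4%) and 8 on FPKM with limma (65.1%), and 2 to 6 without single libraries (46.0% to 65.6%). The difference of THZ1 effects between lines called 0 with mitochondrial scaling (1.37%), 1 on FPKM with limma (12.7%) and 1 to 3 without single libraries (up to 41.2%).

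Signs turned as follows, on the log2 scale. For THZ1 in SMB56, Cdk7 became 0.10 with RLE scaling, 0.10 with DESeq2 and 0.051 in the joint fit, Gtf2h1 became -0.88 with mitochondrial scaling and -0.19 on FPKM, and Ercc3 became -0.61 with mitochondrial scaling. For GDC-0449, Cdk7 became -0.076 with mitochondrial scaling and -0.0032 on FPKM, Gtf2h3 became -0.047 and -0.15, and Gtf2h2 became -0.052 with mitochondrial scaling. Without single libraries Gtf2h1 ranged from -0.094 to 0.0071 and Gtf2h4 from -0.091 to 0.00017.

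For THZ1 in SMB56-shSufu, Gtf2h5 became -0.25 with library size, -0.00074 with upper-quartile and -1.16 with mitochondrial scaling and -0.46 on FPKM. Ercc2 became -0.23 with library size scaling, -1.16 with mitochondrial scaling and -0.60 on FPKM. Ercc3 became -0.91 with mitochondrial scaling and -0.18 on FPKM. Cdk7 became 0.019 with RLE scaling, 0.019 with DESeq2 and 0.091 in the joint fit. Without single libraries Cdk7 ranged from -0.084 to 0.071, Mnat1 from -0.39 to 0.10 and Gtf2h5 from -0.0057 to 0.33.

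For the difference of THZ1 effects, Cdk7 became -0.053 with RLE scaling and -0.053 with DESeq2 and ranged from -0.035 to 0.11 without single libraries, and Gtf2h4 became 0.0076 with library size scaling and ranged from -0.29 to 0.19. For the lines under DMSO, Cdk7 became -0.023 with library size scaling. Mitochondrial scaling gave -1.15 for Cdk7, -0.91 for Gtf2h1, -0.70 for Gtf2h2, -0.71 for Gtf2h3 and -0.71 for Ercc3. The median of all genes under that scaling was -1.23. Gtf2h4 became 0.0066 on FPKM and ranged from -0.30 to 0.18 without single libraries.

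The replicate numbers are not known to pair libraries, and deviations of same-numbered libraries correlated by 0.013, 0.090 and 0.15 over genes in the tables of THZ1 in SMB56, GDC-0449 and SMB56-shSufu. With the replicate number as a block, the members called were 7, 0 and 6 in those tables, where 99.6%, 39.6% and 66.6% of all genes were called. For the difference of effects 3 were called (26.4% of all genes), and for the lines under DMSO 4 (55.8% of all genes). The block added Gtf2h4 in SMB56-shSufu (-0.37, edgeR adjusted p 0.0379) and changed no other call. Mnat1, with 134 to 418 reads per library, has the widest intervals, and 2 libraries per group limit every comparison.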
